A study of Mus musculus with 6 samples.

Results

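T and natural killer (NK) cell genes were examined in 6 mouse livers, 3 in which green fluorescent protein (GFP) was expressed and 3 in which Sonic Hedgehog (SHH), a secreted ligand of the Hedgehog pathway, was expressed. The 31 genes were chosen by name: components of the T cell receptor, its coreceptors and kinases, surface receptors of T cells, granule proteins of killer cells, NK receptors and the transcription factors of cytotoxic lymphocytes. Of these, 29 had a probe set naming that gene alone, out of 22180 genes in all. The signals of Cd247 and Lck were not analysed here, but their start-site sequences were among those counted below. All mice were male C57BL/6, kept in a pathogen-free room, with 1 array per mouse, and each group is named by its mouse numbers (GFP 13, 21 and 6; SHH 26, 28 and 31). Per the design text, SHH was introduced by hydrodynamics-based transfection, a rapid large-volume injection from which mainly hepatocytes take up DNA, and fibrosis was the question. How GFP was introduced is not stated, and the labels record no further treatment in either group. Per-mouse values below are in the order GFP 13, 21, 6 and SHH 26, 28, 31 unless ranges are given. The promoter that drove the genes, the age of the mice and the time after injection are not stated in the labels. Whole liver RNA was measured, so fewer cells of a type and less RNA per cell cannot be told apart.

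T cells recognise antigen through a receptor whose signal is carried by the CD3 chains, with CD4 or CD8 as coreceptor and the kinases Lck and Zap70 just inside the membrane. NK cells lack that receptor and use activating and inhibitory receptors of the killer lectin-like family instead. Both NK cells and CD8 T cells kill by releasing granules that hold perforin and granzymes. The liver is rich in such cells, including NK cells, resident innate lymphoid cells and NKT cells, which read lipids on CD1d.

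Start-site sequences are given for the 3 measured CD3 chains, because Cd3g had the largest difference among the T cell genes, and for Gzma and Prf1, granule genes with unlike differences. They are from RefSeq (GRCm38.p6), each 300 bases from 250 before to 50 after a transcription start, 5′ to 3′ on the gene's strand. Capitals mark matches, on either strand, to the letters TGTGGT (a core of RUNX sites), GGAAGT (an ETS core) or AGGTGT (part of a T-box site); TATAAA was searched as well. No matches overlapped in these 5 sequences. They lie at chr9:44980382-44980681, minus strand (Cd3g), chr9:44981536-44981835, plus strand (Cd3d), chr9:45009562-45009861, minus strand (Cd3e), chr13:113100932-113101231, minus strand (Gzma) and chr10:61297586-61297885, plus strand (Prf1).
Cd3g: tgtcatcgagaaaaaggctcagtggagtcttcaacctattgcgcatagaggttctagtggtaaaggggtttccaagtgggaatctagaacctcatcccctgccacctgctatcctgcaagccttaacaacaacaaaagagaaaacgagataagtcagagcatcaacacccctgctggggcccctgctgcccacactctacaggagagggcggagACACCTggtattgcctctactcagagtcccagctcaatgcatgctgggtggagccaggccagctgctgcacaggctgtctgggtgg
Cd3d: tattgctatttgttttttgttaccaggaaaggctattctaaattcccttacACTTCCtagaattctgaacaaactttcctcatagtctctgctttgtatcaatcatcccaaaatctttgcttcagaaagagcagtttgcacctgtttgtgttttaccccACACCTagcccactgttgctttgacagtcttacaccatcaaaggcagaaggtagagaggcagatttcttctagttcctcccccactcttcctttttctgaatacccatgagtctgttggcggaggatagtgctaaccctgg
Cd3e: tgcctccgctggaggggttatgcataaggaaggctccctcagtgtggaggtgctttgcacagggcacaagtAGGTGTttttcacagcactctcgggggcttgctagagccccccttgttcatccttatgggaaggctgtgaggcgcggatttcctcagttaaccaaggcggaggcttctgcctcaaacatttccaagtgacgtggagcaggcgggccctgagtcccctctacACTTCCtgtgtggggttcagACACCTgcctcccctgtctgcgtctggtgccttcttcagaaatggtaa
Gzma: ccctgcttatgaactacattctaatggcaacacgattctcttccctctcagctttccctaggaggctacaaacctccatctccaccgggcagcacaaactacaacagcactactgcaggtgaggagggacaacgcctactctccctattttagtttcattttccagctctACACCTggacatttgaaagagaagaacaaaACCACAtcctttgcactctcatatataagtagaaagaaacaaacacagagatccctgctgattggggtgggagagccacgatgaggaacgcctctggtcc
Prf1: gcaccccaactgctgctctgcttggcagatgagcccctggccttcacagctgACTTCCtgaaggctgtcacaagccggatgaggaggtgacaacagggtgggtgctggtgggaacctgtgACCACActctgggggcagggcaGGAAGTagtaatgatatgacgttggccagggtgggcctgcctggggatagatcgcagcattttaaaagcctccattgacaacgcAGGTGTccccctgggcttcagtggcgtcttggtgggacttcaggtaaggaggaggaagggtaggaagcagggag

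Cd3g and Cd3d are neighbours read in opposite directions, with 1355 bases between their start sites. The T-box letters (ACACCT on the other strand) stood in the windows of Cd3g, Cd3d, Cd3e, Gzma and Prf1. RefSeq entries were found for 22 of the 31 genes, Cd247 and Lck included, with 28 start sites. The RUNX letters were in 12 of the 28 windows (42.9%), against 16.8% of 32851 windows of the same length from all genes. The ETS letters were in 15 (53.6% against 23.8%), the T-box letters in 8 (28.6% against 13.7%) and TATAAA in 2 (7.14% against 13.6%). Some of these windows overlap or belong to 1 gene, so the shares are a description of letters and not of bound sites. Several members are also direct neighbours in the genome with no protein-coding gene between them: Cd28, Ctla4 and Icos, Cd8b1 and Cd8a, Cd5 and Cd6, Klrd1 and Klrk1, and the CD3 genes.

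Most members had low signals. The deposited values are log2 signals, so a difference of 1 is a doubling. Of the 29 genes, 15 lay below the median of all genes on every array (medians 4.66 to 4.77) and only Zap70, Icos and Ptprc lay above it on every array. Klrb1c and Ctla4 were below the lower quartile (3.43 to 3.52) throughout. Array signals tend to understate changes of dim genes, and no measure of detection was used. The hepatocyte list, by contrast, averaged 11.86 to 11.98 on all 6 arrays.

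**Figure D1:**
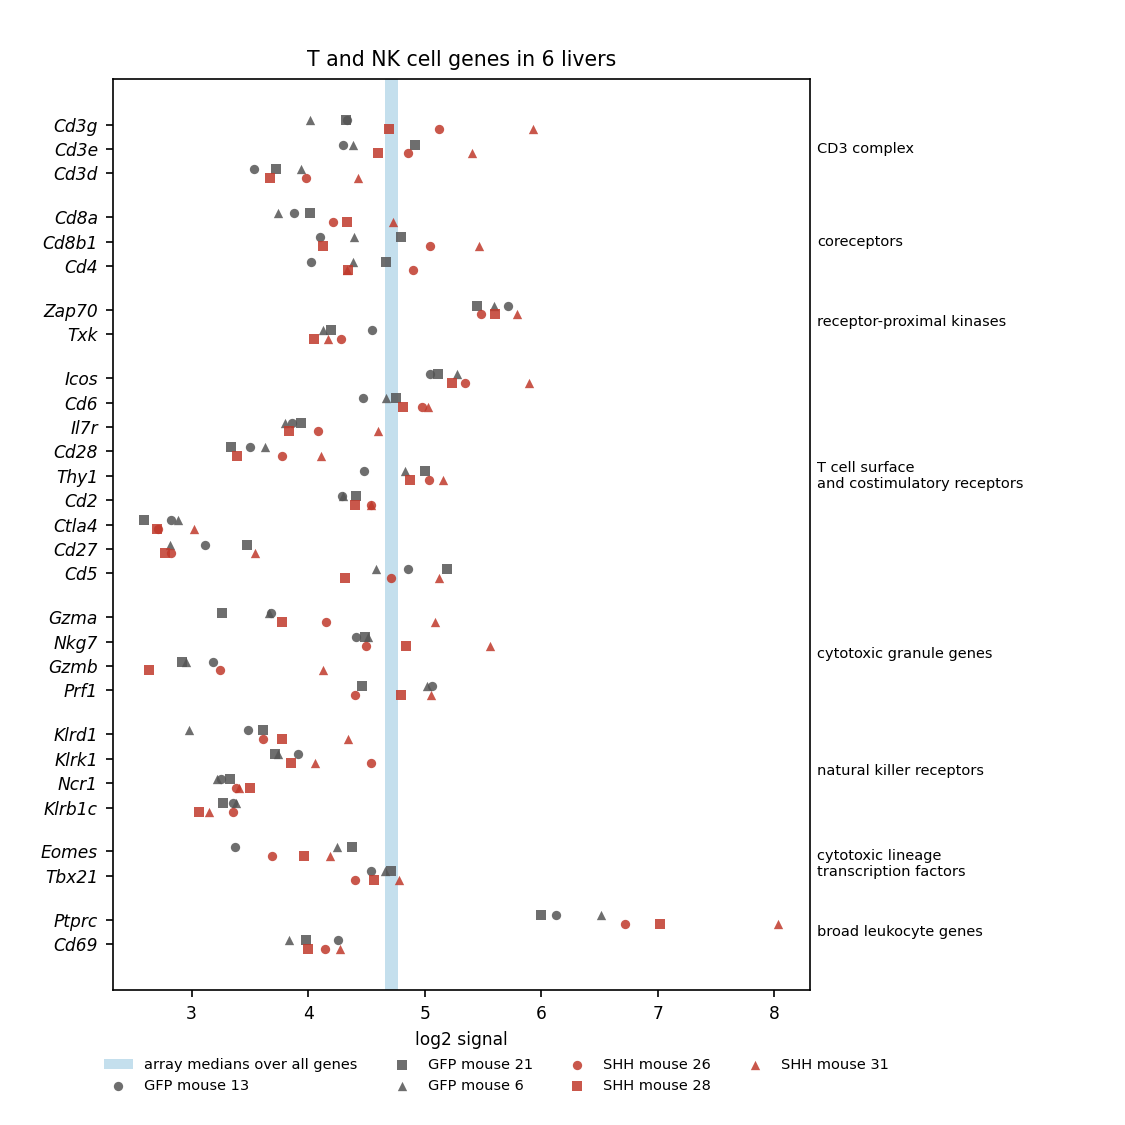
Log2 signal (x axis) of the 29 measured T and NK cell genes (y axis, grouped by role) in each GFP liver (grey) and SHH liver (red), 1 point per mouse. The blue band spans the 6 array medians over all genes (4.66 to 4.77). SHH mouse 31 holds the highest value for 20 of the 29 genes, and most points lie left of or near the band.

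In limma's test over all 22180 genes no member passed an adjusted p of 0.05, and no gene did in either direction (0% called). Among the members, 22 of 29 (75.9%) had a higher mean in SHH livers, against 43.8% of all genes. Every SHH value lay above every GFP value in 7 members (24.1%), against 5.26% of all genes: Cd3g, Cd8a, Cd6, Gzma, Klrd1, Ncr1 and Ptprc. The opposite order occurred in 0 members and in 7.25% of all genes. At an unadjusted p under 0.05, limma placed 6 members higher and 0 lower, where the shares over all genes were 3.33% and 4.01%. The median difference of the members was 0.27 on the log2 scale, beside -0.03 for all genes, and it was 0.14 without SHH 31. The genes were chosen with earlier results of these data known, so these counts are a description and carry no test of the list.

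The CD3 chains, the signalling part of the T cell receptor, all had higher means in SHH livers, Cd3g most of all. Cd3g was 4.33, 4.33 and 4.02 in the GFP livers and 5.13, 4.70 and 5.93 in the SHH livers. The lowest SHH liver was thus above the highest GFP liver. Its difference of 1.02 (SE 0.28; 2.03-fold) had a 95% interval of 0.40 to 1.65, with limma's adjusted p = 0.490. Cd3e was 4.30, 4.92 and 4.38 in the GFP livers against 4.86, 4.60 and 5.41 in the SHH livers. GFP 21 exceeded SHH 26 and SHH 28, and the difference was 0.42 (95% interval -0.11 to 0.95). Cd3d, the divergent neighbour of Cd3g, was 3.53, 3.72 and 3.94 against 3.98, 3.68 and 4.43. The groups overlapped there as well, with a difference of 0.30 (-0.16 to 0.75). In all 3 chains SHH 31 was the highest mouse, and without it the differences were 0.68 for Cd3g, 0.20 for Cd3e and 0.10 for Cd3d.

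Of the coreceptors, Cd8a, the chain present on CD8 T cells and on some dendritic cells, stood apart between the groups. It was 3.88, 4.02 and 3.74 in GFP livers and 4.21, 4.34 and 4.73 in SHH livers, 1.46-fold higher (difference 0.55, SE 0.16, adjusted p = 0.524 in limma). Its interval ran from 0.18 to 0.92, and leaving out any 1 mouse kept the difference between 0.40 and 0.66. Cd8b1, the partner chain found on conventional CD8 T cells, was 4.10, 4.80 and 4.39 against 5.05, 4.12 and 5.47. SHH 28 lay within the GFP values, and the difference of 0.45 (-0.27 to 1.17) became 0.16 without SHH 31. Cd4, the coreceptor of helper T cells, was 4.03, 4.67 and 4.39 against 4.90, 4.34 and 4.34. Here SHH 26 was the high mouse rather than SHH 31, and the difference of 0.17 (-0.31 to 0.64) became -0.02 without SHH 26.

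The kinases differed little in mean. Zap70, which binds the phosphorylated CD3 chains, was 5.45 to 5.71 in GFP livers and 5.48 to 5.80 in SHH livers (difference 0.04, interval -0.27 to 0.35). Txk, a kinase of the Tec family, was 4.13 to 4.55 against 4.05 to 4.28 (difference -0.13, interval -0.46 to 0.21). Lck, the kinase upstream of Zap70, had no value here.

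Among 9 surface receptors, 7 had higher means (77.8%, beside 43.8% of all genes) and 1, Cd6, had groups that did not overlap (11.1%, beside 5.26%). Cd6, a scavenger-receptor-like molecule that tunes T cell activation, was 4.47, 4.76 and 4.67 in GFP livers and 4.97, 4.81 and 5.03 in SHH livers. The groups were separated by a narrow margin, with a difference of 0.31 (SE 0.13, interval 0.01 to 0.61, limma adjusted p = 0.673). Cd5, its genomic neighbour and a brake on receptor signalling, was 4.86, 5.19 and 4.58 against 4.71, 4.31 and 5.12, and its difference was -0.16 (-0.67 to 0.35). Icos, a costimulator of activated T cells, was 5.05, 5.12 and 5.28 against 5.35, 5.23 and 5.90, so that only SHH 28 fell within the GFP range. Its neighbours Cd28, the main costimulator, and Ctla4, the inhibitory receptor for the same ligands, differed by 0.27 and 0.05. The interleukin 7 receptor Il7r was 3.80 to 3.94 in GFP livers and 4.09, 3.83 and 4.60 in SHH livers, a difference of 0.31 (-0.12 to 0.73). Thy1, a surface protein of T cells that fibroblasts also carry, and the adhesion receptor Cd2 differed by 0.25 and 0.16. Cd27, a member of the tumour necrosis factor receptor family, differed by -0.09. Without SHH 31, the differences became 0.14 for Icos, 0.09 for both Il7r and Cd28, and -0.06 for Ctla4.

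Granule genes gave a split picture. Gzma, the tryptase-like granzyme, was 3.68, 3.26 and 3.66 in GFP livers and 4.15, 3.78 and 5.09 in SHH livers, with no overlap. It was 1.75-fold higher (difference 0.80, SE 0.30, interval 0.12 to 1.48, adjusted p = 0.627 in limma), and 0.43 without SHH 31. Nkg7, a granule membrane protein of NK and cytotoxic T cells, was 4.41, 4.48 and 4.51 against 4.50, 4.84 and 5.56. The GFP values were tightly grouped and SHH 26 lay among them, and the difference of 0.50 (-0.04 to 1.04) became 0.20 without SHH 31. Gzmb, the aspartate-cleaving granzyme, was 3.19, 2.92 and 2.95 against 3.24, 2.64 and 4.13, with the highest and the lowest value both in SHH livers. Its difference of 0.32 became -0.08 without SHH 31. Prf1, which encodes perforin, was 5.06, 4.46 and 5.02 against 4.40, 4.80 and 5.05, a difference of -0.10 (-0.58 to 0.38). A further probe set named Prf1 together with a mitochondrial gene and was not used.

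NK receptors had low signals, between 2.98 and 4.54. Klrd1 encodes CD94, the partner of the NKG2 receptors, and was 3.48, 3.61 and 2.98 in GFP livers against 3.61, 3.77 and 4.34 in SHH livers. SHH 26 exceeded GFP 21 by less than 0.01, so the lack of overlap is marginal. The difference of 0.55 (0.04 to 1.06) became 0.34 without SHH 31 and 0.36 without GFP 6. Klrk1, the activating receptor NKG2D, was 3.91, 3.72 and 3.74 against 4.54, 3.85 and 4.06, highest in SHH 26. Its difference of 0.36 (-0.05 to 0.77) became 0.17 without SHH 26. Ncr1, the NKp46 receptor and the most NK-restricted gene of the set, was 3.26, 3.33 and 3.22 against 3.38, 3.50 and 3.40. The order was complete but the difference small, at 0.16 (-0.10 to 0.42). Klrb1c, which encodes the NK1.1 antigen, was 3.35, 3.27 and 3.38 against 3.35, 3.06 and 3.15, a difference of -0.14 (-0.43 to 0.15). A probe set shared with Klrb1a was left out.

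The transcription factors that direct cytotoxic lymphocytes had group means within the spread of single mice. Eomes was 3.37, 4.37 and 4.25 in GFP livers and 3.69, 3.97 and 4.18 in SHH livers (difference -0.05, interval -0.64 to 0.53). Tbx21, which encodes T-bet, was 4.54 to 4.71 against 4.40 to 4.78 (-0.05, interval -0.36 to 0.26). Of the 2 broad leukocyte genes, Ptprc, the CD45 phosphatase of all white blood cells, had the largest difference of all 29 members. It was 6.13, 5.99 and 6.51 in GFP livers and 6.72, 7.02 and 8.03 in SHH livers, 2.06-fold higher (difference 1.05, SE 0.31, interval 0.35 to 1.74, limma adjusted p = 0.522). No SHH value reached down to the GFP range, and the difference was 0.66 without SHH 31. Cd69, an early activation marker, differed by 0.12 (-0.22 to 0.45).

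**Figure D2:**
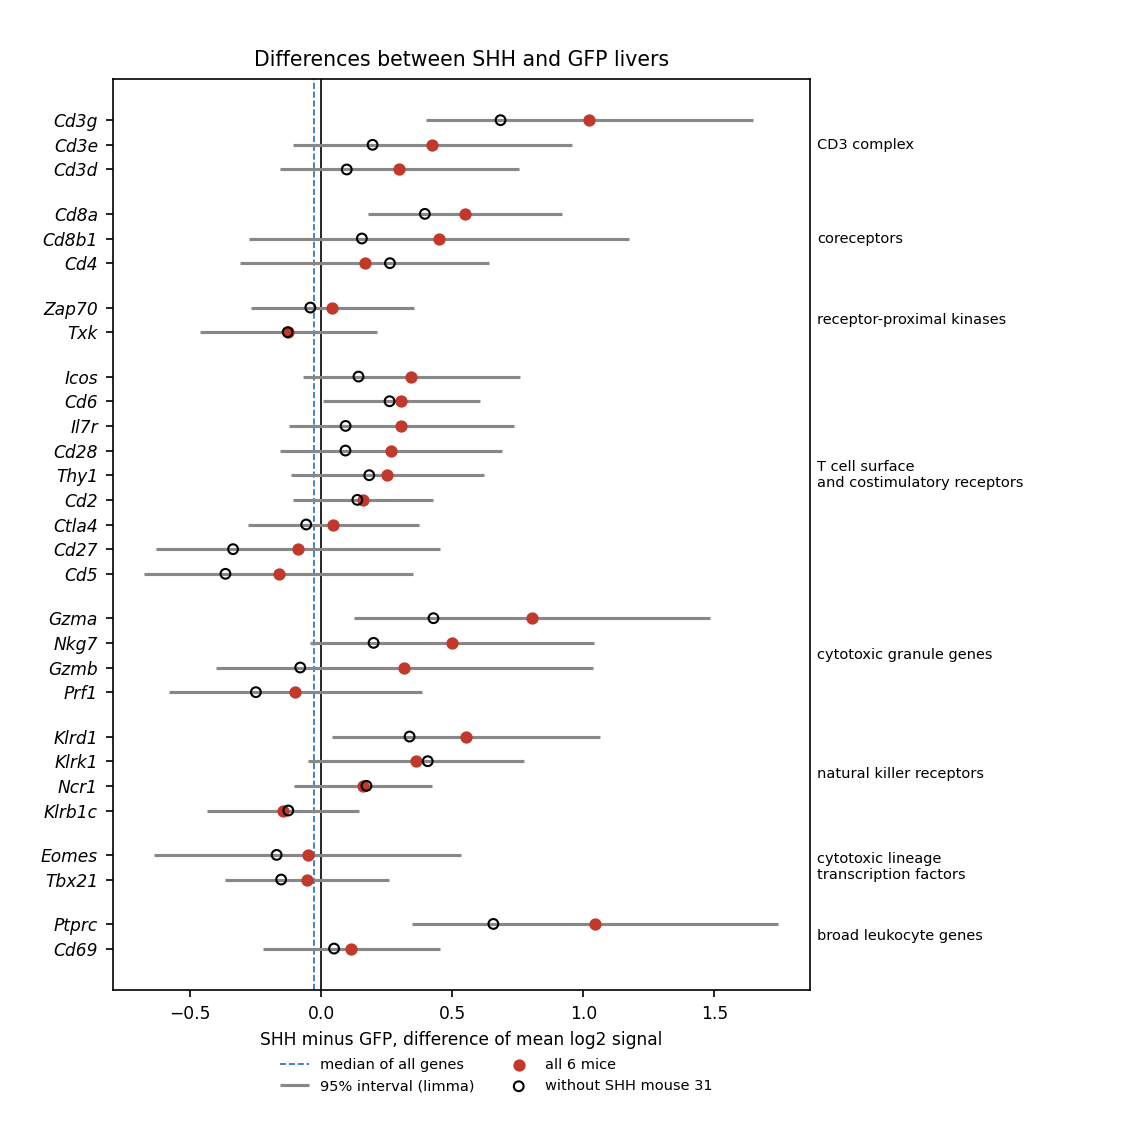
Difference of mean log2 signal, SHH minus GFP (x axis), for each measured gene (y axis, grouped by role). Red points are all 6 mice with limma's 95% interval as a grey bar, open circles are the differences without SHH mouse 31, and the dashed line is the median of all genes (-0.03). Intervals for Cd3g, Cd8a, Cd6, Gzma, Klrd1 and Ptprc lie above 0, and most open circles sit closer to 0 than the red points.

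T cell genes (16 measured) were set against cytotoxic and NK genes (11 measured), leaving Ptprc and Cd69 aside. Txk (difference -0.13), described above with the kinases, was counted among the cytotoxic and NK genes. The contrast with Txk placed among the T cell genes was not tested. Of the T cell genes, 14 had higher means (87.5%, beside 43.8% of all genes), with a median difference of 0.28. Of the cytotoxic and NK genes, 6 had higher means (54.5%), with a median difference of 0.16. Complete separation upward was seen in 3 genes of each class (18.8% and 27.3%, beside 5.26% of all genes). The mean shift of the T cell genes from the GFP average was -0.09, 0.12 and -0.03 in the GFP livers and 0.241, -0.003 and 0.584 in the SHH livers. For the cytotoxic and NK genes it was 0.024, -0.020 and -0.004 against 0.093, 0.024 and 0.489. SHH 28 therefore sat among the GFP livers in both classes, and SHH 31 stood highest in both.

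The gap between the classes within a mouse, T cell minus cytotoxic and NK mean shift, was -0.11, 0.14 and -0.03 in the GFP livers and 0.15, -0.03 and 0.09 in the SHH livers. Of the SHH livers only SHH 26 lay outside the GFP range, by under 0.01. With medians in place of means the gap was -0.16, 0.18 and -0.03 against 0.23, 0.03 and 0.31. By that measure SHH 26 and SHH 31 lay above the GFP range and SHH 28 lay within it. Without SHH 31 the median difference was 0.14 for T cell genes and -0.08 for cytotoxic and NK genes. Without SHH 28 these were 0.41 and 0.13.

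**Figure D3:**
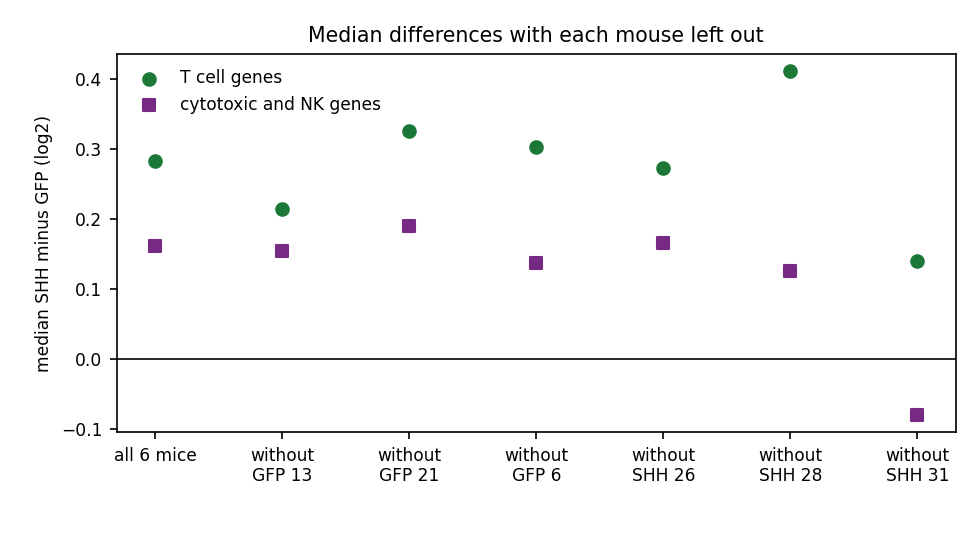
Median SHH minus GFP difference (y axis, log2) of the 16 T cell genes (green circles) and the 11 cytotoxic and NK genes (purple squares), with all 6 mice and with each mouse left out (x axis). The purple value drops to -0.08 without SHH mouse 31, and the green value ranges from 0.14 to 0.41.

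The size of the differences depended on the mouse. SHH 31 had the highest of the 6 values for 20 of 29 members, where it had the highest value for 18.8% of all genes. Leaving SHH 31 out made the difference over 1.5 times smaller, or turned its sign, for 14 of 29 members. Each of the other mice did so for 4 to 6. The difference became over 1.5 times larger for 8 members without SHH 28 and for 6 without SHH 31. Each of the other mice did that for 2 to 5. SHH 26 was highest for 3 members (Cd4, Cd2 and Klrk1) and SHH 28 for 1 (Ncr1). Leaving out a mouse cannot remove a gene from those with every SHH value above every GFP value; it can only add genes. Without SHH 31 the count stayed at the same 7 of 29, against 9.74% of all genes in that setting. When SHH 28 was left out the count was 16 of 29, against 9.22% of all genes. With the array medians made equal it was 11, against 6.54% of all genes, the additions being Cd2, Nkg7, Klrk1 and Icos.

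Other genes of the same systems, from lists outside the 29, were described in the same way; 43.8% of all genes had a higher mean and 5.26% were upward without overlap. Of 15 measured T cell receptor adaptors and signalling genes, 12 had higher means (80.0%), 2, Ptpn22 and Vav1, were upward without overlap (13.3%) and 0 passed over all genes. Their median difference of 0.11 became 0.02 without SHH 31 and 0.17 without SHH 28. Ptpn22, a phosphatase that restrains receptor signalling, was 3.30, 3.39 and 3.69 against 4.45, 4.03 and 5.23, 2.16-fold higher with no overlap. Vav1 was 1.54-fold higher, also without overlap, and Lcp2 and Grap2 overlapped between the groups (0.62 and 0.27). Vav1 and Lcp2 also act in myeloid cells.

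Of 18 genes of T cell subsets and fate, 13 had higher means (72.2%), 2, Zbtb16 and Zbtb7b, were upward without overlap (11.1%) and 0 passed. Zbtb16, the factor PLZF that marks NKT cells and is also made by other liver cells, was 7.46, 8.38 and 6.38 against 8.91, 8.74 and 8.46, 2.46-fold higher without overlap. Il2ra, the interleukin 2 receptor alpha chain of regulatory T cells, was 4.55, 4.33 and 4.15 against 3.78, 3.86 and 4.05 (difference -0.45). It was the 1 gene of the 18 with every SHH value below every GFP value, an order found in 7.25% of all genes. Foxp3, the factor of regulatory T cells, differed by 0.11 with overlapping values; like Zbtb7b, Fcgr3, Hcls1 and Col1a1, named elsewhere for their lack of overlap, it was chosen after its value was seen. Bcl6, with overlapping values, had the lowest difference of the 18, -1.26, and Tox differed by 0.27. At an unadjusted p under 0.05, limma placed 1 gene of this list higher and 2 lower, where the shares over all genes were 3.33% and 4.01%.

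Among 13 lymphocyte migration genes, 10 had higher means (76.9%) and 2, Cxcr6 and Ccr8, were upward without overlap (15.4%, beside 5.26% of all genes). The chemokine receptor Cxcr6, carried by liver-resident NKT and T cells, was 3.37 to 3.56 in GFP livers and 3.64, 3.90 and 4.10 in SHH livers (1.33-fold). Itgal, a chain of the integrin LFA-1, was 1.54-fold higher with SHH 26 inside the GFP range, and Ccr8 differed by 0.23. Ccr4 differed by -0.15 and was the 1 gene of the 13 with every SHH value below every GFP value. That order was found in 7.25% of all genes. Of 14 inhibitory receptors and their ligands, 10 had higher means (71.4%). Havcr2, Cd274 and Entpd1 were without overlap (21.4% of the list, beside 5.26% of all genes), with differences of 0.43, 0.51 and 0.41. Lag3 differed by -0.30. SHH 31 was highest for 12 of these 14, and their median difference went from 0.17 to -0.04 without it and to 0.33 and 0.27 without SHH 26 and SHH 28.

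Of 21 further NK and innate lymphoid genes, 15 had higher means (71.4%, beside 43.8% of all genes) and 4, Il2rb, Klrc1, Tyrobp and Fcgr3, were without overlap (19.0%, beside 5.26%). Their median difference of 0.19 became 0.11 without SHH 31 and 0.33 without SHH 28. Il2rb, a shared receptor chain for interleukins 2 and 15, was 3.85, 4.09 and 4.27 against 4.69, 4.30 and 5.10 (1.54-fold). Klrc1, which encodes the inhibitory partner NKG2A of CD94, was 2.67, 3.24 and 3.46 against 4.14, 3.50 and 3.78 (1.61-fold), and Cd7 and Tyrobp were each 1.60-fold higher, Cd7 with overlap. Of 19 further effector genes, 15 had higher means (78.9%, beside 43.8% of all genes) and 0 were without overlap (beside 5.26%). The chemokine Ccl5 was 5.20 to 5.78 in GFP livers and 6.56, 5.31 and 8.12 in SHH livers, so its difference of 1.22 became 0.50 without SHH 31. Ccl3, Srgn and Gzmm differed by 1.05, 0.48 and -0.24.

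Of 17 ligands that attract or sustain these cells, 9 had higher means (52.9%, beside 43.8% of all genes) and 8 lower. Cd1d1, which presents lipids to NKT cells, averaged 8.40 ± 0.11 (SD, n = 3 mice) with GFP and 7.83 ± 0.17 (SD, n = 3 mice) with SHH. Every SHH liver lay below the lowest GFP liver, at 8.28 (difference -0.57, interval -0.88 to -0.26, limma adjusted p = 0.409). Cd1d1 was the 1 ligand of the 17 in that order, which 7.25% of all genes showed. Upward without overlap were 0 ligands, beside 5.26% of all genes. Cxcl9, an interferon-induced attractant of T cells, was 7.52 to 7.65 against 8.49, 7.36 and 10.54, so that its difference of 1.21 became 0.33 without SHH 31. Cd48 and Il7 differed by 0.45 and 0.25. None of these genes passed over all genes.

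Marker lists of other leukocytes also had higher means in SHH livers. A list of 16 genes of all leukocytes had higher means for 15 (93.8%, beside 43.8% of all genes), 5 without overlap (Cd53, Dock2, Itgb2, Lsp1 and Hcls1; 31.2%, beside 5.26%). Its mean level was 5.25 to 5.59 in GFP livers and 5.64 to 6.28 in SHH livers, and the SHH livers lay 0.23, 0.27 and 0.87 above the GFP average. All 16 macrophage genes had higher means (mean level 6.57 to 7.35 against 7.14 to 8.09, median difference 0.63). Their mean level in GFP 6 (7.35) was above that in SHH 26 (7.14) and SHH 28 (7.30). Higher means were also found for 14 of 14 neutrophil genes (3.78 to 3.89 against 4.04 to 5.19, 0.51). The same held for 11 of 14 monocyte and dendritic cell genes (5.35 to 5.61 against 5.75 to 6.39, 0.36). Upward without overlap were 3 macrophage (18.8%), 5 neutrophil (35.7%) and 6 monocyte and dendritic cell genes (42.9%), beside 5.26% of all genes. Of 16 B and plasma cell genes, 13 had higher means (4.35 to 4.41 against 4.44 to 4.77), with a median of 0.08. Without SHH 31 the medians were 0.36 for macrophage, 0.36 for neutrophil, 0.20 for monocyte and dendritic cell and 0.03 for B and plasma cell genes. They also moved upward by over 1.5 times without GFP 6 for macrophage genes (0.95), and without SHH 26 for monocyte and dendritic cell (0.62), neutrophil (0.87) and B and plasma cell genes (0.15); the last was 0.14 without GFP 13. RMA signals do not reach 0, so no marker was listed at 0. The part of these cells in the values of Ptprc and of the other members was not tested. In SHH 28 the mean neutrophil shift was 1.34, beside -0.003 and 0.024 for T cell and for cytotoxic and NK genes. In SHH 31 it was 1.18, beside 0.58 and 0.49, and in SHH 26 it was 0.18, beside 0.241 and 0.093. The median neutrophil shift was 0.03, 0.73 and 0.92 in SHH 26, 28 and 31, so SHH 31 was highest by that measure.

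Of the non-leukocyte lists, stellate cell and fibroblast genes had higher means for 12 of 14 (85.7%, beside 43.8% of all genes), 5 without overlap (Hhip, Pdgfra, Lum, Col14a1 and Col1a1; 35.7%, beside 5.26%). Their mean level was 6.33 to 6.40 in GFP livers and 6.57 to 6.74 in SHH livers, with a median difference of 0.15, or 0.29 without SHH 28. The part of fibroblasts in the difference of Thy1 was not tested. Sinusoidal endothelial genes had lower means for 13 of 14 and a higher mean for 1 (7.14%, beside 43.8% of all genes). In 2 of them every SHH value lay below every GFP value, an order found in 7.25% of all genes. The mean levels of the list overlapped (6.64 to 7.13 against 6.27 to 6.99). Its median difference was -0.19, and between -0.40 (without SHH 31) and -0.02 (without SHH 28) with single mice left out.

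**Figure D4:**
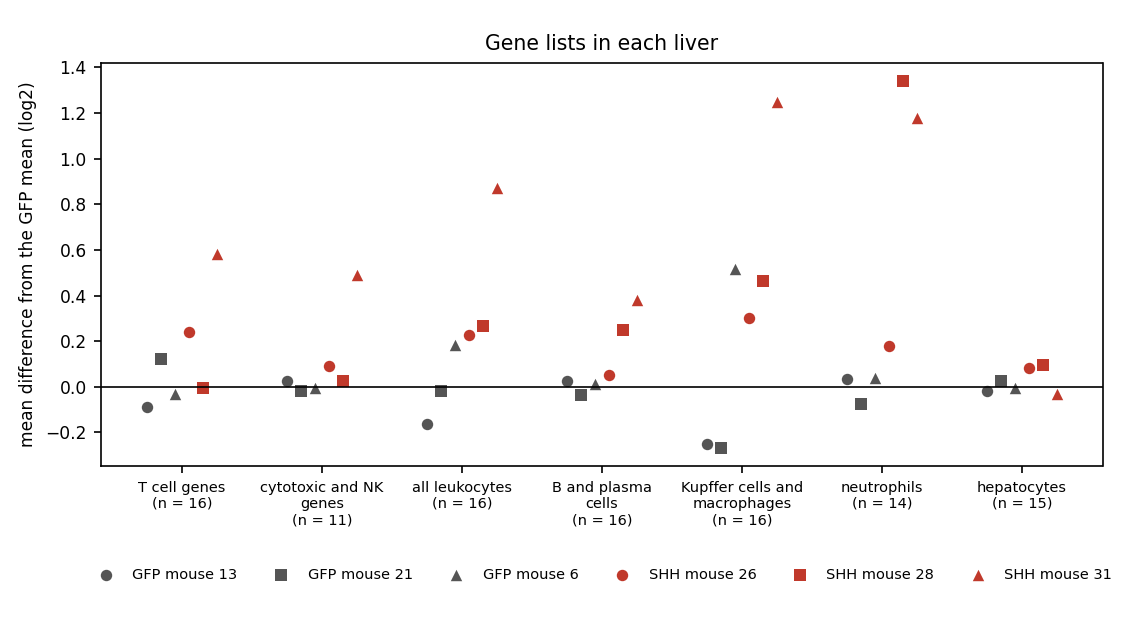
Mean difference from the GFP average (y axis, log2) over the genes of each list (x axis, with the number measured) in each GFP liver (grey) and SHH liver (red). T cell genes and cytotoxic and NK genes are highest in SHH mouse 31 (0.58 and 0.49) and near 0 in SHH mouse 28, in which neutrophil genes reach 1.34; hepatocyte genes stay between -0.03 and 0.09.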

How the data were processed

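Deposited values are log2 signals, 1 column for each array, which the authors made with RMA per the submitters' processing notes. RMA corrects background, equalises the arrays and summarises each probe set; version, summary level and annotation are not given in these sources. Of 41345 probe sets, platform annotation named 1 gene for 23521 and several for 1814. Each gene was represented by the probe set naming it alone with the highest mean over 6 arrays (22180 genes; every measured member had 1 such probe set). The groups were compared in R 4.3.3 by limma 3.58.1 (lmFit and eBayes, two-sided), without covariates or a filter, with Benjamini-Hochberg adjustment over all genes at 0.05 and 95% intervals from that fit. With 3 against 3 mice an exact permutation test cannot go below p = 0.1, and none was used. A fold is 2 to the power of the difference. The number of arrays limits the precision.

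The members and lists were chosen with earlier results of these data known. Named are every measured member and, where genes of another list are named, the up to 4 with the smallest unadjusted p. The genes chosen after their values were seen are given above with Foxp3. No gene was named from the macrophage, neutrophil, monocyte and dendritic cell, B and plasma cell, sinusoidal endothelial and hepatocyte lists. Alternatives changed the probe set (average of a gene's probe sets, or that of largest interquartile range), the filter (genes above the median level only), the normalization (quantile again, or equal medians), the prior (trended or robust) and the array weights, or left out each mouse.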

Additional observations from a re-analysis of the deposited data

How the results depend on the processing

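No paired analysis was possible because no mouse number occurs in both groups. The reported fit and 13 alternatives called 0 genes over all genes; without SHH 26, limma called 30 higher and 16 lower, none of them a member. Leaving out single mice thus gave 0 to 30 genes higher and 0 to 16 lower. The count of members with every SHH value above every GFP value was 7. It became 3 among genes above the median level, where 10 members were tested, and 11 with equal array medians. With mice left out the count ranged from 7 to 16, but leaving out a mouse cannot remove a gene from it. All of the 7 stayed in the count under both changed normalizations. Medians over all probe sets were 4.33 and 4.32 for SHH 26 and SHH 28, below those of the GFP livers (4.36 to 4.39). Making the medians equal thus raised SHH 26 and SHH 28 relative to the GFP livers, and the share over all genes rose from 5.26% to 6.54%. That setting was therefore a weak check on the 7. The other normalization gave 10. The choice of probe set could not change the count, because every measured member had 1 probe set naming it alone. The median difference of the cytotoxic and NK genes ranged from -0.0798 (without SHH 31) to 0.190 with mice left out, and the T cell median minus that of the cytotoxic and NK genes from 0.0587 to 0.285. The median of the T cell genes and of all members stayed above 0 throughout; that of all members was 0.138 to 0.369 with mice left out.

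Single genes changed sign in 19 cases over 10 genes, with reported differences between -0.16 (Cd5) and 0.32 (Gzmb), and 19 genes kept their direction in every setting. With array weights Ctla4 differed by -0.0115. With single mice left out the differences ranged from -0.0212 to 0.32 for Cd4, -0.37 to 0.0400 for Cd5, -0.34 to 0.0841 for Cd27, -0.0412 to 0.11 for Zap70, -0.0798 to 0.67 for Gzmb, -0.29 to 0.0760 for Prf1, -0.21 to 0.00271 for Txk, -0.0570 to 0.10 for Ctla4, -0.37 to 0.14 for Eomes and -0.15 to 0.0358 for Tbx21. The cause of these changes was not tested. Low signals and 3 mice a group limit what can be seen for the dim NK receptor genes.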
